A study of Homo sapiens with 6 samples.

Results

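This account covers 10 genes of the BCL2 family in A549 cells, taken by their symbols from the table of counts per gene: BCL2, BCL2L1, MCL1, BAK1, BID, BCL2L11, BIK, PMAIP1, BMF and BAD. All 10 symbols were found once among the 30230 genes of the table, and all 10 were among the 17076 genes that passed the filter on low counts. RNA sequencing of polyadenylated RNA was available for 6 libraries of A549, an established human lung adenocarcinoma line. In 3 libraries (NC) the cells carried a negative control, and in 3 libraries the cells were depleted of FSCN1 transcripts (siFSCN1), which encode fascin, a protein that bundles actin filaments. According to the study, NC received a scrambled siRNA and siFSCN1 a single sequence against FSCN1. The study describes these both as siRNA and as plasmids expressing it, and the treatment label of the NC samples names a control plasmid. With 1 siRNA sequence, effects of the loss of FSCN1 and other effects of that siRNA cannot be told apart. The comparison asks how the transcripts of these genes differ after FSCN1 silencing.

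BCL2 family proteins decide whether the outer mitochondrial membrane is permeabilized, the committing step of intrinsic apoptosis. Anti-apoptotic members (BCL2, BCL-XL from BCL2L1, MCL1) hold the pore-forming effectors BAX and BAK in check. BH3-only proteins (BID, BIM from BCL2L11, BIK, NOXA from PMAIP1, BMF and BAD) sense stress and either bind the anti-apoptotic members or activate the effectors. BIM and BMF bind dynein light chains, BMF being linked in this way to myosin V motors on actin.

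In GENCODE v44 (GRCh38) the genes on the minus strand are BCL2 at chr18:63123346-63320128, BCL2L1 at chr20:31664452-31723989, MCL1 at chr1:150560895-150579738, BAK1 at chr6:33572547-33580293, BID at chr22:17734138-17774770, BMF at chr15:40087890-40108892 and BAD at chr11:64269830-64284704. On the plus strand lie BCL2L11 at chr2:111119378-111168444, BIK at chr22:43110750-43129712 and PMAIP1 at chr18:59899996-59904305.

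Of the 10 genes, 8 differed between groups at an adjusted p under 0.05 in edgeR's quasi-likelihood test, 2 higher and 6 lower in siFSCN1. Over all tested genes 68.3% passed this threshold, 35.1% higher and 33.2% lower. BCL2L11 and BCL2 rose, whereas BIK, BAK1, BMF, BAD, BID and BCL2L1 fell, and MCL1 and PMAIP1 did not pass. BIK was the gene of these 10 that changed at least 2-fold, and it was lower. Of all tested genes 16.5% changed at least 2-fold, 4.85% lower. The median log2 fold change of the 10 genes was -0.18, beside 0.03 for all tested genes. The library-scaled counts (CPM) of 8 of the 10 genes did not overlap between groups, as was the case for 71.3% of all tested genes. With upper quartile scaling, and with library totals alone, 3 of these genes were higher and 4 lower, because these scalings raise all values of siFSCN1 relative to NC and move the median of all tested genes to 0.15 and 0.22. Once the trend of fold change with abundance was removed, 4 were higher and 4 lower. CPM below denotes counts scaled by TMM factors. FPKM denotes the deposited values per gene length, which were scaled to the fragments mapped in each library without such a factor. The length behind them followed the merged exons of each gene in GENCODE v44, for example 951 bases for BIK and 12612 bases for BCL2. Orders and shares of genes by FPKM therefore depend on that choice of length.

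**Figure D1:**
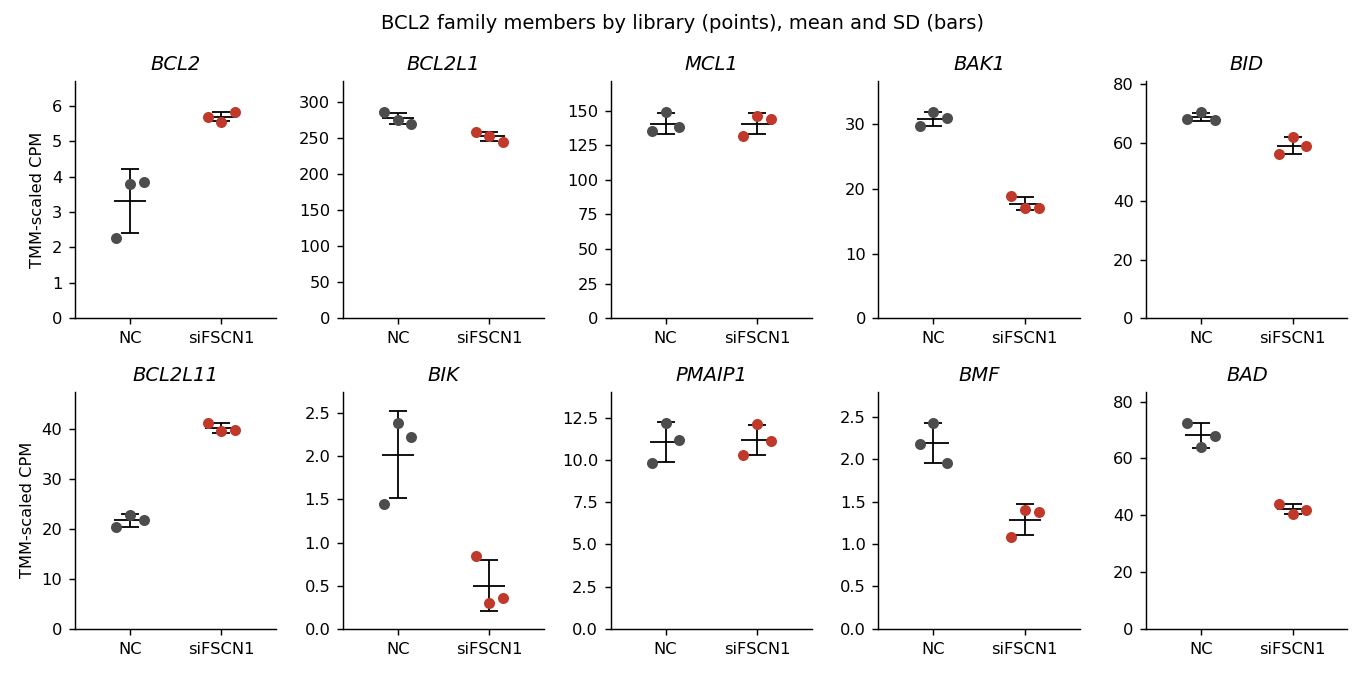
TMM-scaled CPM (vertical axes, linear from 0, one scale per gene) of the 10 genes in 3 NC and 3 siFSCN1 libraries. Points are libraries, the horizontal bar is the group mean and the whiskers are 1 SD. BCL2L11 lay between 20.4 and 22.9 CPM in NC and between 39.6 and 41.3 CPM in siFSCN1, and the groups overlapped for MCL1 and PMAIP1.

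The libraries held between 27967301 and 36560919 counts. FSCN1 itself stood at 211, 220 and 212 CPM in NC and at 18.3, 11.8 and 13.2 CPM in siFSCN1, which left 6.75% of the NC level. All 10 markers of A549 and epithelial cells were at or above 1 FPKM in some library, with sums of 8107 to 8762 FPKM in NC and 7742 to 8209 FPKM in siFSCN1. Of 6 listed alveolar type 2 markers, ABCA3 reached 1 FPKM, and 0 of 6 leukocyte and 0 of 8 fibroblast and endothelial markers did (sums of at most 1.06 FPKM). In bulk RNA fewer cells of a type and less RNA per cell cannot be told apart. The study calls the replicates biological without saying whether each was a separate culture. The p-values thus set each difference against the variation among these libraries, which may not stand for separate cultures.

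The sequences just before the start sites of 3 genes are shown because these genes changed most among those above 1 FPKM in every library, BCL2L11 upwards and BAK1 and BAD downwards. RefSeq (GRCh38.p14) gave windows of 250 bases before to 50 after the start for 8 of the 10 genes, while MCL1 and BIK had none. Capitals mark matches on either strand to 4 motifs, namely GTAAACA, a site of forkhead factors, CACGTG, known as the E-box, GGGCGG, known as the GC box, and the box named after its letters CCAAT. The windows lie on the plus strand at chr2:111120664-111120963 for BCL2L11, on the minus strand at chr6:33580227-33580526 for BAK1, and on the minus strand at chr11:64284655-64284954 for BAD. The BCL2L11 window lies wholly inside the GENCODE gene, so its RefSeq start is downstream of the GENCODE start at 111119378. RefSeq also gave BAD an overlapping window at chr11:64284616-64284915, which is not shown.
BCL2L11: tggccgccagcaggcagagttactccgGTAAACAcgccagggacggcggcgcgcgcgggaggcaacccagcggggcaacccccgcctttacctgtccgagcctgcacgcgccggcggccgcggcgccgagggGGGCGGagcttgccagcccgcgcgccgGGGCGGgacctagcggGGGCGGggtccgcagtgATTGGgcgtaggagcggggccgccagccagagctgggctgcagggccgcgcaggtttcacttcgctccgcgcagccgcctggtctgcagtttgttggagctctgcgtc
BAK1: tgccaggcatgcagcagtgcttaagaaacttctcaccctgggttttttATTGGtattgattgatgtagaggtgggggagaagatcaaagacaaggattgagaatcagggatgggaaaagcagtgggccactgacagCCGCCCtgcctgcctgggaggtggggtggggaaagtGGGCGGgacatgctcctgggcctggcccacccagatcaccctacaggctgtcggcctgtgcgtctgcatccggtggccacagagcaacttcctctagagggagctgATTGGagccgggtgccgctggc
BAD: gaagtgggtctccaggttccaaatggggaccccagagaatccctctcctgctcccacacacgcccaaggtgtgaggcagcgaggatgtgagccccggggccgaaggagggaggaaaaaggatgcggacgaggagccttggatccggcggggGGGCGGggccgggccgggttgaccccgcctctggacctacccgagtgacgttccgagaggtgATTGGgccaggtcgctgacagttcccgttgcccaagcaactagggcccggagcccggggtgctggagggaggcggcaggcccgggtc
The BCL2L11 window held 1 GTAAACA, a motif found in 3.42% of 35116 RefSeq windows of this length and in no other window of the 8 genes. It also held 3 GC boxes and 1 CCAAT box. BAK1 had 2 GC boxes and 2 CCAAT boxes, and BAD 1 of each, where 45.0% of all windows had a GC box and 34.6% a CCAAT box. The E-box, present in 7.26% of all windows, was absent from the 3 windows shown. A match is a description of letters and not of binding.

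Among the anti-apoptotic genes, the abundant ones barely moved on TMM-scaled counts and the scarce one rose. BCL2L1 had the highest level of the 10 genes, with FPKM of 53.55, 52.01 and 51.62 in NC replicates 1 to 3 and of 55.69, 53.03 and 51.86 in siFSCN1 replicates 1 to 3. These FPKM ranges overlapped. In CPM it was 286, 275 and 270 in NC and 258, 253 and 245 in siFSCN1, with no overlap and a log2 fold change of -0.14 (SE 0.038, adjusted p 0.00404 in edgeR). The sign of this difference depended on the scaling, since it was 0.051 with library totals and 0.14 once the trend of fold change with abundance was removed, where it passed in the opposite direction (adjusted p 0.00306). Gene-level counts cannot separate the long, protective BCL-XL transcript of BCL2L1 from the short pro-apoptotic form.

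MCL1, which encodes a short-lived protein that restrains BAK and binds BIM, had 135, 149 and 138 CPM in NC and 132, 146 and 144 CPM in siFSCN1. The groups overlapped, and the log2 fold change was 0.0018 (SE 0.048, adjusted p 0.98 in edgeR) with a 95% interval of the fold from 0.934 to 1.07. MCL1 passed in 5 of 16 alternatives. With library totals the log2 fold change was 0.19 at an adjusted p of 0.00236, beside a median of 0.22 over all tested genes. With the abundance trend removed it was 0.23 (adjusted p 0.000377 in edgeR), beside a median of -0.0066 over all tested genes.

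BCL2, the founding member of the family, was scarce in A549 cells, with 66, 100 and 132 counts in NC and 196, 183 and 198 counts in siFSCN1. In CPM these were 2.28, 3.80 and 3.86 in NC against 5.70, 5.56 and 5.83 in siFSCN1. All siFSCN1 libraries lay above all NC libraries, of which replicate 1 was the lowest. The fitted rise was 1.71-fold, a log2 fold change of 0.78 (SE 0.156, adjusted p 0.00025 in edgeR), and 0.56 to 0.91 when each library was left out in turn. Its mean was 0.210 FPKM in NC and 0.403 FPKM in siFSCN1, so that the rise left BCL2 at 0.321% of the summed FPKM of the 10 genes. Of the 5969 tested genes under 1 FPKM, 42.9% rose and 12.9% fell.

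The effector gene BAK1 fell. Its CPM was 29.7, 31.9 and 30.9 in NC and 18.9, 17.1 and 17.1 in siFSCN1, so every siFSCN1 library lay well below every NC library. The log2 fold change was -0.80 (SE 0.059, adjusted p 8.8e-10 in edgeR), which left 57.4% of the NC level. Over the alternative settings it stayed between -0.87 and -0.57. BAX, another effector gene, which is not one of the 10, went the same way by a larger amount. It went from 75.2 FPKM ± 3.05 (SD, n = 3) to 32.8 FPKM ± 3.60 (SD, n = 3). On TMM-scaled counts the log2 fold change of BAX was -1.37 (SE 0.055, adjusted p 2.9e-13 in edgeR). BAK1 has 2 named pseudogenes, and reads shared with them would not have been counted if mapped to several places, so its counts carry that uncertainty.

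BCL2L11, which encodes the potent activator BIM, was the BH3-only gene that rose among the 10 genes. It had 590, 602 and 750 counts in NC and 1422, 1305 and 1353 counts in siFSCN1, or 20.4, 22.9 and 21.9 CPM against 41.3, 39.6 and 39.8 CPM. The lowest siFSCN1 library was far above the highest NC library. The rise was 1.85-fold with a 95% interval from 1.71 to 2.01, a log2 fold change of 0.89 (SE 0.054, adjusted p 6.5e-11 in edgeR). It thus stayed just under 2-fold, and passed it with upper quartile scaling (1.01 on the log2 scale), library totals (1.08) and limma on log2(FPKM + 0.1) (1.03). Of the 7974 tested genes between 1 and 10 FPKM, 35.5% rose, and 5.71% rose at least 2-fold. The lncRNA gene MIR4435-2HG covers BCL2L11 on the opposite strand. That gene had a mean of 1651 counts in NC and 2083 counts in siFSCN1, with a log2 fold change of 0.15 (adjusted p 0.018 in edgeR). The library kit was strand-specific, but the strand setting of the authors' counting is not stated, and the part of reads from the opposite strand in BCL2L11 was not tested.

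BIK, an endoplasmic reticulum BH3-only protein, showed the largest relative fall of the 10 genes on few counts. It had 42, 63 and 76 counts in NC and 29, 10 and 12 counts in siFSCN1. In CPM these were 1.45, 2.39 and 2.22 against 0.843, 0.304 and 0.353, with siFSCN1 replicate 1 the highest of its group and still below every NC library. The log2 fold change was -2.0 (SE 0.325, adjusted p 2.7e-05 in edgeR), or 25.0% of the NC level with a 95% interval of the fold from 0.156 to 0.402. Without siFSCN1 replicate 1 it was -2.62. On log2(FPKM + 1), a scale on which the pseudocount exceeds the siFSCN1 level of 0.470 FPKM ± 0.287 (SD, n = 3), it was -0.88 and short of 2-fold. BIK does not overlap another gene in GENCODE v44.

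BAD, a BH3-only protein that is held inactive by 14-3-3 proteins when phosphorylated by survival kinases, ranked second of the 10 genes by FPKM. By mean CPM in NC, which is not divided by gene length, BAD (68.1) stood behind BCL2L1 (277), MCL1 (140) and BID (68.9). Its FPKM was 33.46, 29.75 and 31.81 in NC and 23.35, 20.93 and 21.75 in siFSCN1, with no overlap. In CPM it fell to 61.9% of the NC level, a log2 fold change of -0.69 (SE 0.056, adjusted p 3.5e-09 in edgeR). Among the 2812 tested genes of 10 to 100 FPKM 63.8% fell, with a median log2 fold change of -0.26. The gene GPR137 overlaps nearly all of BAD on the opposite strand, and its own log2 fold change was -0.14 (adjusted p 0.044 in edgeR).

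BMF, the BH3-only protein that is tethered to the actin motor complex through dynein light chain 2, was near the lower end of detection. It had 63, 64 and 67 counts in NC and 37, 46 and 47 counts in siFSCN1. Every siFSCN1 library was below every NC library, at 1.08, 1.40 and 1.38 CPM against 2.18, 2.43 and 1.96 CPM. The log2 fold change was -0.76 (SE 0.201, adjusted p 0.00274 in edgeR) and reached -1.06 once the trend with abundance was removed. DYNLL2, the gene of that light chain, rose with a log2 fold change of 0.56 (SE 0.052, adjusted p 2.7e-08 in edgeR), as did the myosin V gene MYO5A with 0.39 (SE 0.056, adjusted p 6.6e-06). DYNLL1, the light chain that binds BIM, fell with a log2 fold change of -0.42 (SE 0.038, adjusted p 1.4e-08 in edgeR).

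BID, which couples caspase-8 to mitochondria once cleaved, had 68.2, 70.5 and 67.9 CPM in NC and 56.2, 61.8 and 59.0 CPM in siFSCN1. The groups did not overlap, but the fall was small, with a log2 fold change of -0.22 (SE 0.050, adjusted p 0.00064 in edgeR). It no longer passed in 5 of 16 alternatives, among them upper quartile scaling (-0.11, adjusted p 0.0735) and library totals (-0.036, adjusted p 0.55). Another was removal of the abundance trend (-0.0615, adjusted p 0.284 in edgeR). BID belongs to the tested genes of 10 to 100 FPKM, of which 63.8% fell, with a median log2 fold change of -0.26. PMAIP1, whose product NOXA binds MCL1, had 9.83, 12.2 and 11.2 CPM in NC and 10.3, 12.1 and 11.1 CPM in siFSCN1. The groups covered almost the same range, and the log2 fold change of 0.015 (SE 0.107, adjusted p 0.91 in edgeR) had a 95% interval of the fold from 0.864 to 1.18.

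**Figure D2:**
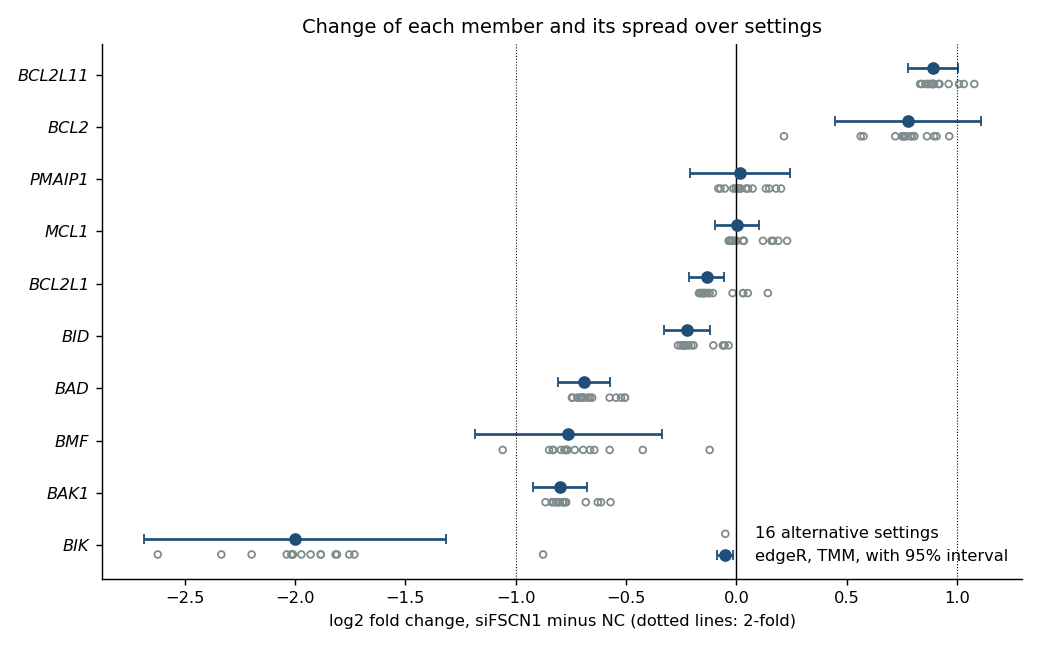
Log2 fold change of siFSCN1 against NC (horizontal axis) for each of the 10 genes. Filled points with bars are the edgeR estimates and their 95% intervals, open circles are 16 alternative settings, and dotted lines mark 2-fold. All estimates of BCL2L11 and BCL2 lie right of 0 and all of BAD, BMF, BAK1 and BIK left of 0, whereas MCL1, PMAIP1 and BCL2L1 fall on both sides.

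Shares within a library do not depend on how libraries are scaled, but they do depend on the gene lengths used for FPKM. In NC the order of mean FPKM was BCL2L1 (52.4), BAD (31.7), MCL1 (17.9), BID (12.4), BAK1 (11.1), PMAIP1 (4.03), BCL2L11 (2.59), BIK (1.69), BMF (0.320) and BCL2 (0.210), and the ranges of neighbours did not overlap. In siFSCN1 BCL2L11 (5.39) stood above PMAIP1 (4.56), and BCL2 (0.403) above BMF (0.213). BAD (22.0) and MCL1 (20.1) had come close without overlap, while the ranges of BIK (0.470) and BCL2 overlapped.

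The 3 anti-apoptotic genes together took 52.7%, 52.9% and 52.0% of the summed FPKM of the 10 genes in NC and 58.5%, 59.4% and 58.9% in siFSCN1. The share of BAD went from 23.6% ± 1.41 (SD, n = 3) to 17.5% ± 0.690 (SD, n = 3), and that of BAK1 from 8.24% ± 0.347 (SD, n = 3) to 5.67% ± 0.282 (SD, n = 3). The share of BCL2L11 went the other way, from 1.93% ± 0.123 (SD, n = 3) to 4.29% ± 0.085 (SD, n = 3). BCL2L11 stood in NC at 7.20%, 9.18% and 8.30% of the FPKM of BAD, and in siFSCN1 at 24.1%, 25.0% and 24.5%. BAX and BAK1 together stood in NC at 122% ± 4.37 (SD, n = 3) of the summed FPKM of BCL2, BCL2L1 and MCL1. In siFSCN1 they stood at 53.9%, where the libraries ran from 50.4% to 59.4%. Other effector and anti-apoptotic genes of the family were not part of this ratio. None of these shares overlapped between groups. They describe transcripts and not proteins.

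**Figure D3:**
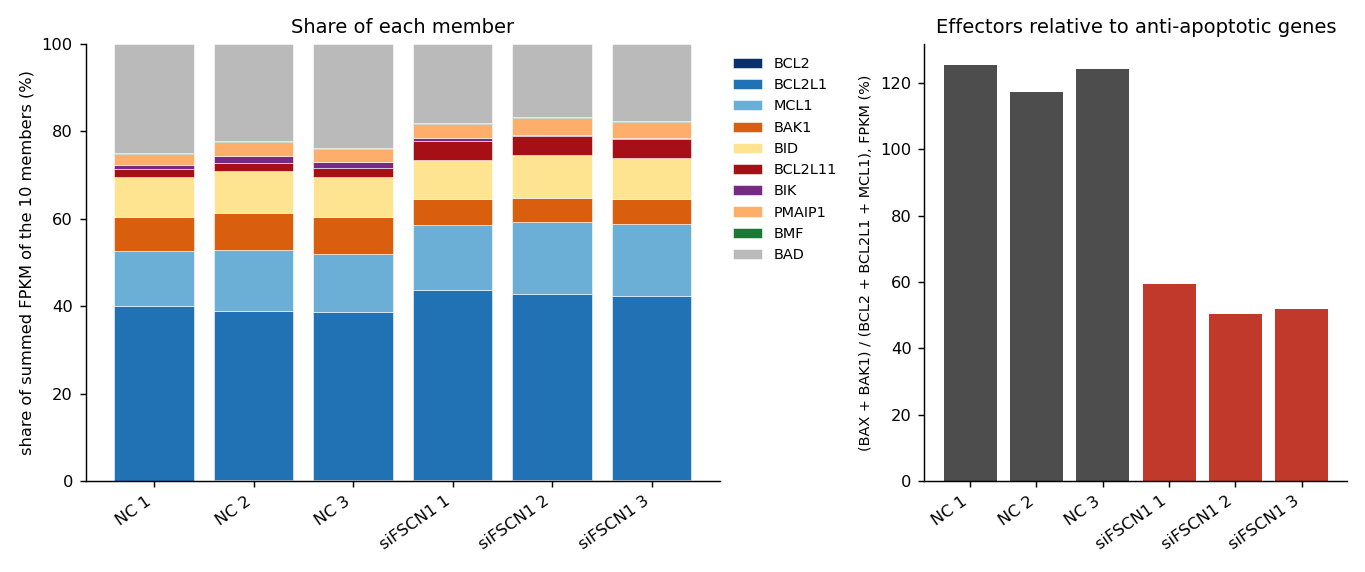
Left, share of each gene in the summed FPKM of the 10 genes in each library (stacked bars, %). Right, summed FPKM of BAX and BAK1 as a percentage of that of BCL2, BCL2L1 and MCL1, with NC in grey and siFSCN1 in red, from 117% to 126% in NC and from 50.4% to 59.4% in siFSCN1.

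Other genes of the apoptosis machinery were counted in 6 lists. Of 85 genes, 78 could be tested, and 67 had an adjusted p under 0.05 in edgeR, 23 higher and 44 lower in siFSCN1, with a median log2 fold change of -0.19 over the 78. Over all tested genes 35.1% were higher and 33.2% lower, a background for each list below that is not matched for abundance. These shares varied with abundance, from 42.9% higher and 12.9% lower under 1 FPKM to 10.9% and 81.9% at 100 FPKM or more. With library totals 29 list genes were higher and 31 lower, and with the abundance trend removed 25 were higher and 38 lower. Among the other BCL2 family genes 3 rose and 7 fell of 10 tested, where BCL2L15 (-1.21) fell at least 2-fold beside BAX. BBC3, whose product PUMA is a BH3-only protein, rose from 2.65 FPKM ± 0.193 (SD, n = 3) to 4.82 FPKM ± 0.303 (SD, n = 3). Its log2 fold change on TMM-scaled counts was 0.70 (SE 0.090, adjusted p 1.8e-06 in edgeR).

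Of 15 apoptosome and caspase genes 8 fell, 1 rose and 6 did not pass. The smallest adjusted p among them were those of CYCS, the gene of cytochrome c, with a log2 fold change of -0.50 (SE 0.036, adjusted p 7.3e-10 in edgeR), and of the mitochondrial nuclease gene ENDOG, with -0.998 (SE 0.063, adjusted p 1.1e-10). Of 10 tested genes of the death receptor pathway 7 fell and 2 rose. TNFRSF1A, the main TNF receptor, fell by 1.67 on the log2 scale, and TNFRSF10B, a TRAIL receptor, by 1.32, with adjusted p of 1.8e-14 and 5.1e-14 in edgeR. The 6 tested inhibitors of apoptosis were split, with BIRC3 at a log2 fold change of -1.29 (adjusted p 4.4e-11 in edgeR) and BIRC7 at 1.09 (adjusted p 2.9e-06), the latter under 2-fold without NC replicate 1 (0.99) or NC replicate 3 (0.996).

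Of 24 genes for binding partners and turnover of BCL2 proteins 14 fell and 8 rose, beside 33.2% and 35.1% of all tested genes. The falls of at least 2-fold were those of SFN, a 14-3-3 gene, at a log2 fold change of -1.23 (adjusted p 2.7e-14 in edgeR), and of PIM2, a kinase that phosphorylates BAD, at -1.25 (adjusted p 2.1e-10). Once the trend with abundance was removed, SFN stood at -0.95. Of 13 tested transcription factor genes 6 rose and 6 fell. The forkhead factor gene FOXO4 was the one that changed at least 2-fold, at 1.39 (SE 0.179, adjusted p 1.7e-06 in edgeR) and a mean of 0.263 FPKM in NC and 0.783 FPKM in siFSCN1. Among all tested genes under 1 FPKM, 24.9% rose at least 2-fold.

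**Figure D4:**
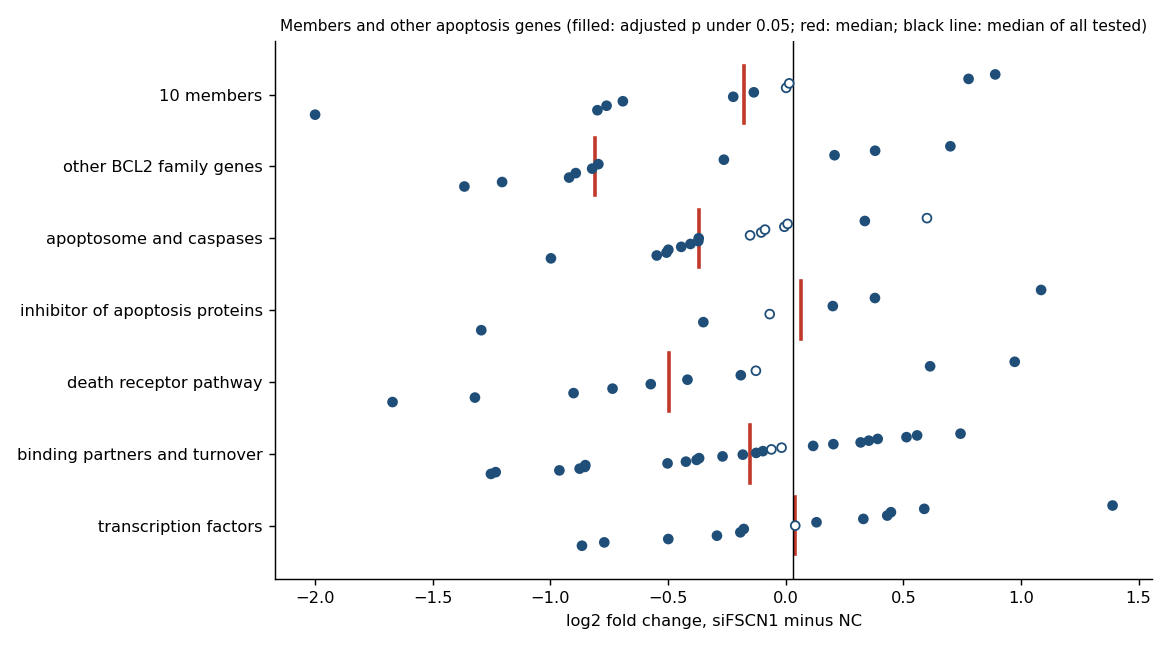
Log2 fold change (horizontal axis) of the 10 genes and of the tested genes of 6 other lists, 1 point a gene, filled where the adjusted p is under 0.05. Red bars are list medians and the black line the median of all tested genes, 0.03. The medians of the other BCL2 family genes (-0.81), the death receptor pathway (-0.50) and the caspases (-0.37) lie left of that line.

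The profiles most like that of BCL2L11 over the 6 libraries, among 9909 protein-coding genes with a mean of at least 1 FPKM, were those of ABCB1, LIMA1 and MOAP1. Their centred log2 CPM differed from it by root mean squares of 0.0207, 0.0214 and 0.0358. Their log2 fold changes were 0.88, 0.91 and 0.87, beside 0.89 for BCL2L11. With only 2 groups of libraries, such likeness largely restates a similar fold change, and shared regulation was not tested. For BIK the nearest were BOLA2B, CDC26 and EIF5AL1, at 0.244, 0.275 and 0.329, a looser likeness. BOLA2B and EIF5AL1 have near-identical copies elsewhere in the genome, so that their counts are uncertain.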

How the data were processed

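Counts and FPKM per gene of 6 libraries were used, grouped and numbered by the sample titles. The authors deposited raw counts per gene and FPKM values. According to the study, reads were trimmed, aligned to GRCh38 with HISAT2 and kept where uniquely mapped, whereas the processing notes name TopHat2. Counting program, strand setting and annotation release are not given in the sources used here.

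Genes passing filterByExpr were scaled by TMM and compared with edgeR 4.0.16 (quasi-likelihood, R 4.3.3) without covariates, with Benjamini-Hochberg adjustment over all 17076 genes. Standard errors came from the fold change and its F statistic. The authors used DESeq2, run here (1.42.0) as an alternative. Others were limma 3.58.1 on log2(FPKM + 0.1) and log2(FPKM + 1), RLE, upper quartile and no scaling factors, no filter, a stricter filter (at least 1 CPM in 3 libraries and 10 counts on average), a replicate block, leaving out each library, removal of the loess trend with abundance, and glmTreat against 2-fold. The test was checked on simulated counts in which few genes changed, equally up and down, so the check does not bear on scaling. Log2 CPM had a prior count of 2. Positions and overlaps came from GENCODE v44.

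The 10 genes and all lists were chosen with earlier results of these data known. The text names all 10 genes and, from each list, those changed at least 2-fold, or else the 2 with the smallest adjusted p at 1 FPKM or more, and direct partners, 1 of which is not reported here. The libraries differed by more than sampling noise (chi-square per degree of freedom of at least 3.10).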

Additional observations from a re-analysis of the deposited data

How the results depend on the processing

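BCL2, BAK1, BCL2L11, BMF and BAD kept their direction and an adjusted p under 0.05 in all 16 alternatives, as did BIK. The number of the 10 genes with an adjusted p under 0.05 was 7 or 8 in all alternatives. The number changed at least 2-fold was 1 and became 2 with upper quartile scaling, library totals and limma on log2(FPKM + 0.1), each adding BCL2L11, 2 with the abundance trend removed, adding BMF, and 0 with limma on log2(FPKM + 1), where BIK fell short. Leaving out each library gave 1 such gene throughout. The signs of the smallest differences changed. BCL2L1 (-0.14) was 0.051 with library totals, 0.030 with limma on log2(FPKM + 0.1), 0.030 on log2(FPKM + 1) and 0.14 without the abundance trend. MCL1 (0.0018) was -0.016 with RLE, -0.028 with DESeq2, -0.0072 without a filter and from -0.035 to 0.033 when each library was left out, where the values of changed sign ran from -0.035 to -0.021. PMAIP1 (0.015) was -0.0034 with RLE, -0.015 with DESeq2, -0.082 without the abundance trend and from -0.073 to 0.073 when each library was left out, -0.073 and -0.053 being those of changed sign. The scalings shift all genes by 1 amount, and the cause of the other changes was not tested. Whether libraries of the same number were pairs is not stated, and their deviations showed little correlation (-0.035, 0.040 and -0.084). With a replicate block 8 of the 10 genes passed, 1 changed at least 2-fold and 66 list genes passed. Of 27 named genes 0 changed direction or call with that block. The 2-fold changes of BCL2L15, BIRC3, BIRC7, PIM2 and FOXO4 were under 2-fold with limma on log2(FPKM + 1), as was BCL2L15 with limma on log2(FPKM + 0.1) (-0.82) and BIRC7 without the abundance trend (0.87), while ENDOG reached 2-fold in 7 of 16 alternatives. On that scale, whose pseudocount exceeds their levels, BCL2 was at 0.22 and BMF at -0.12. At 10 to 198 counts per library, BIK, BMF and BCL2 have the widest intervals.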
